A study of Rattus norvegicus with 12 samples.

Results

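Receptors of the CD300 and paired immune receptor kind, which myeloid cells carry on their surface, were followed in the rat cervix with and without macrophages (Mφ), at the end of pregnancy and outside pregnancy. The members were Cd300a, Cd300e, Cd300lf, Trem2, Sirpa, Gpr34, Pirb, Cd302, Cd200r1 and Siglec1, chosen as the probes whose gene name in the array files is one of these 10 symbols. Of the 10 names, 9 were found, among 26612 gene names on the array. No probe bore the name Pirb, and a probe that the files name LOC690955, whose accession is listed as Pirb in RefSeq, is described apart. The cervix came from adult female Sprague Dawley rats, either on day 21 postbreeding (D21), shortly before birth, or nonpregnant (NP) in proestrus. Cells were dispersed from the whole cervix with collagenase, and were either kept as they were (whole cervix) or, in other rats, passed over magnetic beads with the ED1 antibody, which binds a lysosomal protein of Mφ, so as to remove Mφ (Mφ-depleted cervix). Each of the 4 groups held 3 rats, each rat gave 1 array, and every rat was perfused and every sample, whole ones included, went through the enzyme dispersion. The whole cervix was not passed over beads, so that the bead step and the loss of Mφ cannot be told apart.

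Paired receptors are families in which closely related proteins on the same cell either restrain it or activate it. The restraining members carry tyrosine motifs in the cytoplasmic tail that recruit phosphatases, while the activating members have short tails and signal through adaptors such as DAP12 (Tyrobp) and the Fc receptor gamma chain (Fcer1g). GPR34 and CD302 are followed with them and are not paired receptors of this kind. The ligands of the receptors followed here are often marks of the body's own or of dying cells: CD47 for SIRPα, CD200 for CD200R1, exposed phospholipids for CD300 proteins, lipids and apolipoproteins for TREM2, sialylated glycans for SIGLEC1 and lysophosphatidylserine for GPR34. In tissues such receptors are known for setting how readily Mφ engulf cells and release cytokines.

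The probes are 60 bases long and were placed on the rn4 genome build in the array files. Some of them lie in the part of the transcript that encodes the end of the cytoplasmic tail, and 4 are shown because they carry the signalling end of the receptor or because a second probe of the same gene gave another answer. Capitals mark the codons of a tyrosine motif of the restraining kind in Sirpa and Cd300lf (a tyrosine followed, at the third place after it, by a hydrophobic residue), the asparagine, proline and tyrosine motif by which CD200R1 signals, and the stop codon in Gpr34.
Sirpa, chr3:117245688-117245747, plus strand: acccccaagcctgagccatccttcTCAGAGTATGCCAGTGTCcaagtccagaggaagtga
Cd300lf, chr10:105193024-105193083, minus strand: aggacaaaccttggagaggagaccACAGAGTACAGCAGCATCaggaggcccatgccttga
Cd200r1, chr11:57427314-57427373, minus strand: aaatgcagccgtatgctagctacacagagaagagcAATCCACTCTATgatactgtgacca
Gpr34, chrX:21117225-21117284, minus strand: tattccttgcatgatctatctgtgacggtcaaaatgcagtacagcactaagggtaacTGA

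The other probes used lie at chr10:104788868-104788927 (Cd300a), chr10:105123933-105123992 (Cd300e), chr9:8059065-8059124 (Trem2), chr3:41958063-41958122 (Cd302), chr3:118770179-118770238 (Siglec1) and, for the brighter of both Sirpa probes, chr3:117247749-117247808, downstream of the coding probe on the same strand. Cd300a, Cd300e and Cd300lf thus lie on the same chromosome. Values below are log2 intensities from which the 75th percentile of the array was subtracted, so that 0 is that percentile, and the levels of different probes are not set against each other. "Above background" is the rating of a spot by the scanner software. The lowest 75th percentile of intensity was 289.8, on the array of NP rat 7 after Mφ removal, and the highest 1170.6, on that of D21 rat 1 after Mφ removal, and between 44.9% and 61.7% of probes on an array were above background. NP rat 7 had the lowest value of both. The number of arrays limits the precision.

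The removal of Mφ was visible in Mφ marker genes. Of those tested, 13 of 14 were called higher in whole cervix in D21 and 11 of 12 in NP rats. Over all genes 10.0% and 13.6% were called higher. Most of the Mφ markers called entered the test through whole cervix alone, where they are bright, so these counts are a description only. The mean of 14 Mφ markers was 1.01 ± 0.07 in D21 whole and -3.65 ± 0.39 in D21 Mφ-depleted cervix, and 0.77 ± 0.45 in NP whole and -4.12 ± 0.29 in NP Mφ-depleted cervix (SD, n = 3). Adgre1, a defining Mφ marker, was not above background on any Mφ-depleted array, whereas Cd68, the transcript of the ED1 antigen, was above background on all 12 and differed by -0.15 in D21 (adjusted p = 0.882 from limma), and by 0.54 when NP rats were compared (adjusted p = 0.53 from limma). Markers of other cell types moved too, and so did immediate-early genes, which mark no cell type. Mast cell markers (6 used) were at -1.48 ± 0.10 and -4.53 ± 0.29 in D21 and at -1.94 ± 0.53 and -4.36 ± 0.88 in NP rats, smooth muscle markers were at 4.25 ± 0.21 and 1.91 ± 0.61 in D21 and at 5.09 ± 0.24 and 0.50 ± 0.29 in NP rats, and immediate-early genes were at 0.17 ± 0.08 and 3.18 ± 0.11 in D21 and at -0.47 ± 0.07 and 2.20 ± 0.37 in NP rats (SD, n = 3, whole before Mφ-depleted). Neutrophil markers (4 used) were at -2.08 ± 0.20 and -3.64 ± 0.25 in D21 and at -1.45 ± 0.69 and -2.71 ± 0.68 in NP rats. Dendritic cell markers (2 used) were at -2.87 ± 0.15 and -4.81 ± 0.26 in D21 and at -2.21 ± 0.47 and -4.11 ± 1.03 in NP rats. In each state 1 of 4 neutrophil markers tested (Csf3r) and 1 of 2 dendritic cell markers tested (Flt3) were called. Both genes were above background on no Mφ-depleted array. The part of these cell types and of the immediate-early change in the results below was not tested. Fewer cells of a type cannot be told apart from less RNA per cell.

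Comparing whole with Mφ-depleted cervix asks which transcripts differ after the bead step that removes Mφ. Trem2, Gpr34, Siglec1 and Cd300a were high in whole cervix and low or below background after Mφ removal, in D21 and in NP rats alike. Trem2, a lipid-sensing receptor that signals through DAP12, was at 1.05, 0.99 and 0.31 in the whole cervix of D21 rats 5, 6 and 7 and at -2.72, -1.97 and -5.01 in the Mφ-depleted cervix of D21 rats 1, 2 and 4. In NP rats it was at 0.85, 1.01 and 1.30 in whole cervix (rats 8, 9 and 10) and at -3.69, -3.91 and -4.12 in Mφ-depleted cervix (rats 5, 6 and 7). Every whole cervix lay above every Mφ-depleted one, with the lowest Mφ-depleted value of each state not above background. The difference was 4.02 in D21 (SE 0.60, adjusted p = 0.00159 from limma), and for NP rats it was 4.96 (SE 0.60, adjusted p = 1.1e-04 from limma). It was 3.13 in D21 without Mφ-depleted rat 4 and 4.83 to 5.07 in NP rats when each rat was left out.

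Gpr34, a receptor for lysophosphatidylserine, was bright in whole cervix and at the floor on most Mφ-depleted arrays. Whole cervix was at -0.64, -0.06 and -0.32 in D21 and at -0.76, -0.44 and -0.05 in NP rats. Mφ-depleted cervix was at -7.59, -7.05 and -5.99 in D21, with no array above background. In NP rats the Mφ-depleted values were -7.61 and -7.27 in rats 5 and 6, below background, and -2.31 in rat 7, above it. The groups did not overlap in D21 or in NP rats, where 21.3% and 23.0% of all genes tested were higher in whole cervix without overlap. Gpr34 was at least 20.3-fold higher in D21 whole than in Mφ-depleted cervix (adjusted p = 0.00293 from limma). In NP rats the difference was 5.31 (SE 1.08, adjusted p = 0.00338 from limma). Without NP rat 7 no NP Mφ-depleted array was above background, and whole cervix was at least 26.8-fold higher. The difference was 1.89 against NP rat 7 alone, 1 array with no replicate and the only NP Mφ-depleted array scanned on the day of the whole arrays.

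Siglec1 (sialoadhesin), which binds sialylated glycans and has no restraining motif, was at -0.58, -1.17 and -1.08 in D21 whole and at -4.78, -4.56 and -5.62 in D21 Mφ-depleted cervix. In NP rats it was at -1.26, -1.96 and -0.02 in whole and at -6.06, -7.02 and -4.82 in Mφ-depleted cervix, where no array was above background. The groups were separate in each state. The difference was 4.04 in D21 (SE 0.58, adjusted p = 0.0013 from limma), and Siglec1 was at least 10.1-fold higher in NP whole cervix (adjusted p = 1.0e-04 from limma). Cd300a, a restraining receptor for exposed phospholipids, was at -1.37, -0.90 and -1.32 in D21 whole and at -4.31, -4.38 and -3.95 in D21 Mφ-depleted cervix. In NP rats its whole values were 0.06, -1.61 and 0.15 and its Mφ-depleted values -4.81, -4.27 and -3.26. NP rat 9 stood below the other NP whole samples but still above all Mφ-depleted ones. The difference was 3.02 in D21 (SE 0.48, adjusted p = 0.00247 from limma), and for NP rats it was 3.65 (SE 0.48, adjusted p = 2.1e-04 from limma).

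**Figure D1:**
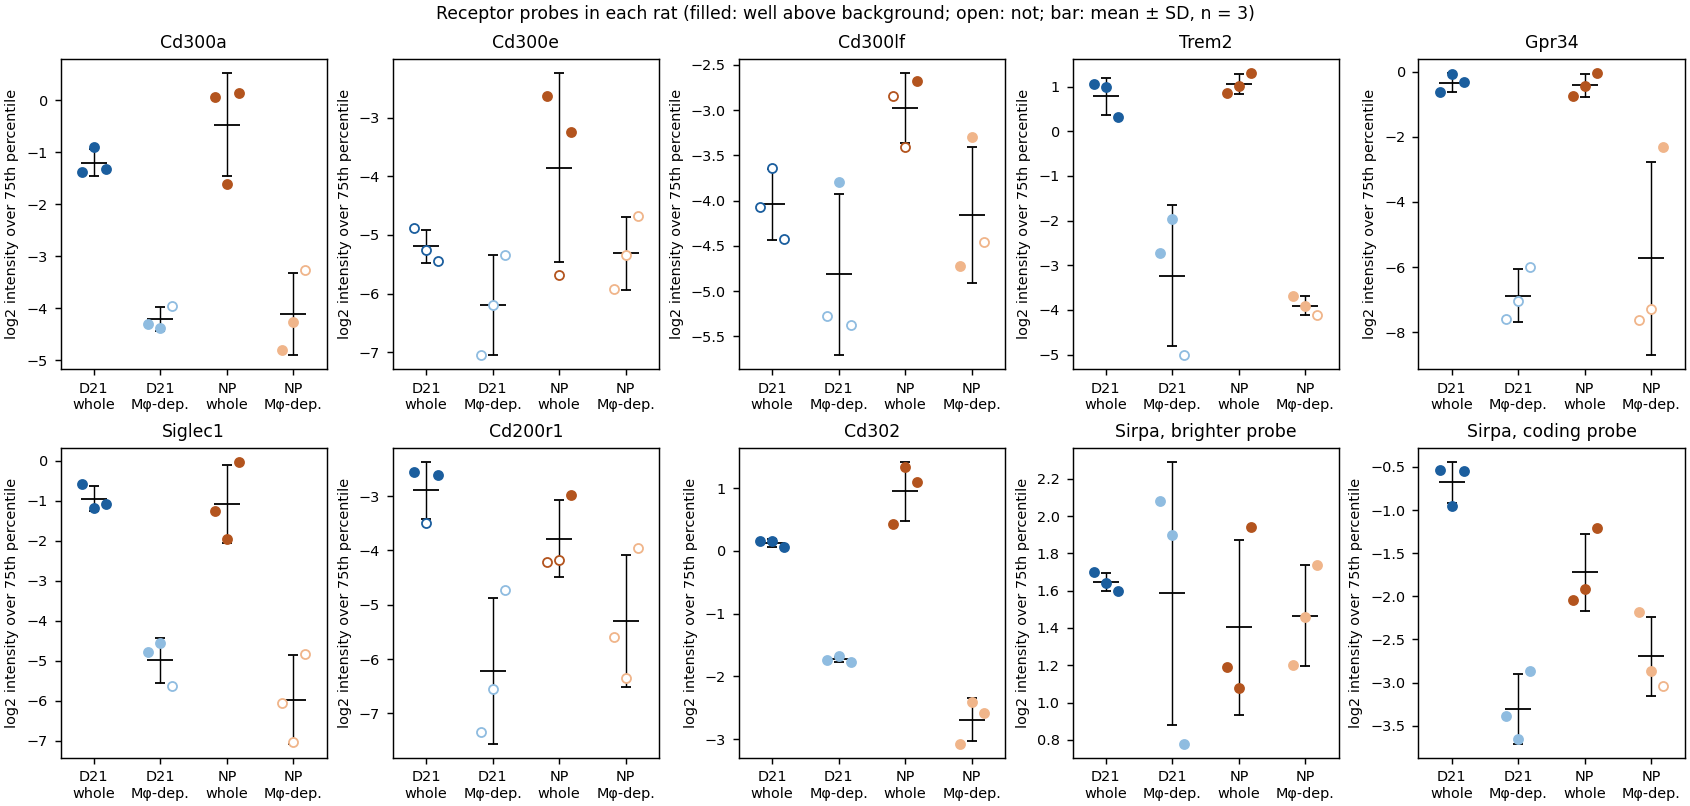
Each panel plots 1 probe, with the log2 intensity over the 75th percentile of the array on the vertical axis and the 4 groups on the horizontal axis. Each point is a rat, filled where the probe was above background and open where it was not, and the bar is the mean ± SD of 3 rats. Trem2, Gpr34, Siglec1, Cd300a and Cd302 separate whole from Mφ-depleted cervix in both states, the brighter Sirpa probe does not, and Cd300e and Cd300lf are mostly open points.

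With Cd302, described next, 5 of the 9 receptors were called higher in the whole cervix of D21 rats and none lower, where a call is an unadjusted limma p under 0.01 with a change of at least 2-fold. Over all 14256 genes tested in D21 rats 10.0% were called higher and 7.72% lower. The count was also 5 in NP rats, where 13.6% of 13409 genes were called higher and 10.8% lower. Cd300a, Trem2, Gpr34 and Siglec1 entered the test through whole cervix alone, where they are bright, so the count over tested receptors is a description only. With no filter on background all 9 were tested, and 6 were called in D21 (5.1% of 26612 genes called higher) and 5 in NP rats (7.56%). In this comparison these 5 receptors kept their direction in all alternatives run. With normexp background correction the D21 differences of Cd300a, Gpr34 and Siglec1 were 1.09, 1.96 and 1.03 and were no longer called. D21 whole and D21 Mφ-depleted cervix shared no slide, and with slide as a term Trem2 alone was called in D21, at 4.64, beside 1.59 for Cd300a, 3.93 for Gpr34, 2.29 for Siglec1 and 1.61 for Cd302. In NP rats 4 stayed called with that term, and Gpr34, at 2.86, did not. For each state a single Mφ-depleted array was scanned on the same day as the whole arrays, D21 rat 4 and NP rat 7, and every whole sample was higher than it for these 5 receptors. On D21 rat 4 only Cd302, and on NP rat 7 only Cd302 and Gpr34, were above background, so that exact differences within the day are given for these alone: Cd302 differed by 1.90 in D21 and 3.52 in NP rats, with no replicate in the Mφ-depleted arm.

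**Figure D2:**
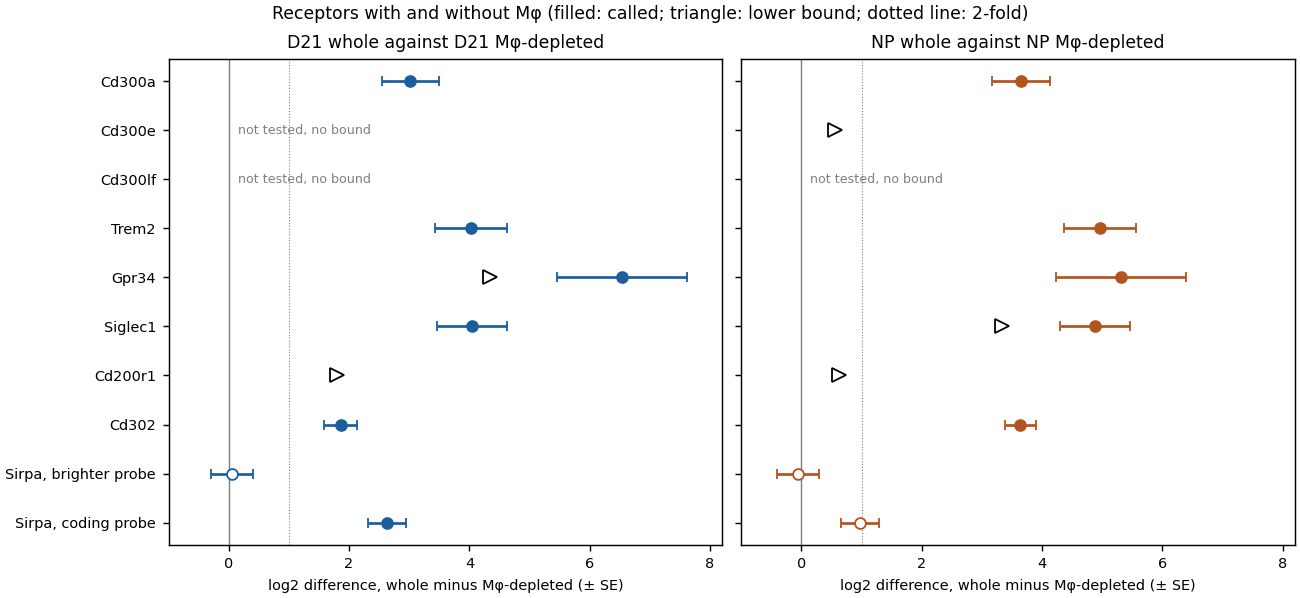
The horizontal axis is the log2 difference of whole minus Mφ-depleted cervix and the bars are standard errors from limma (3 rats a group). Filled points were called, open points were not, and triangles are the lower bounds where no Mφ-depleted array was above background (drawn beside the fitted value where one was fitted), such as 20.3-fold for Gpr34 in D21. For Cd200r1 and Cd300e some whole arrays were not above background either, so their triangles are no lower bounds. The points of Cd302 lie at 1.86 in D21 and 3.64 in NP rats, and those of the coding Sirpa probe at 2.63 and 0.97.

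Cd302, a C-type lectin receptor known from myeloid cells and also from liver, was above background on all 12 arrays. It was at 0.16, 0.16 and 0.06 in D21 whole and at -1.74, -1.68 and -1.77 in D21 Mφ-depleted cervix. In NP rats it was at 0.42, 1.33 and 1.09 in whole and at -3.07, -2.41 and -2.58 in Mφ-depleted cervix. NP whole cervix thus lay above D21 whole cervix, and NP Mφ-depleted below D21 Mφ-depleted cervix, with no overlap in either case. The difference with Mφ removal was 1.86 in D21 (SE 0.27, adjusted p = 0.0013 from limma), and for NP rats it was 3.64 (SE 0.26, adjusted p = 4.3e-06 from limma). The interaction, the D21 difference minus the NP difference, was -1.78 (SE 0.38, adjusted p = 0.0373 from limma). Of the 14565 genes in that test 1.96% were called lower and 0.439% higher, and of the 6 receptors tested Cd302 was called. The call did not hold with each rat left out: the adjusted limma p was 0.087 without NP Mφ-depleted rat 5, 0.0807 and 0.0743 without D21 Mφ-depleted rats 1 and 2, 0.0596 and 0.0868 without NP whole rats 9 and 10, and 0.087, 0.0986 and 0.119 without D21 whole rats 5, 6 and 7, while the interaction stayed between -2.04 and -1.58. It held without NP Mφ-depleted rats 6 and 7, D21 Mφ-depleted rat 4 and NP whole rat 8, and over all alternatives its adjusted limma p ranged from 0.00861 to 0.219.

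Fibroblast and smooth muscle markers were also lower in NP than in D21 Mφ-depleted cervix. The mean of 10 fibroblast markers was 3.94 ± 0.21 in D21 whole, 2.74 ± 0.42 in D21 Mφ-depleted, 4.03 ± 0.07 in NP whole and -0.13 ± 0.69 in NP Mφ-depleted cervix (SD, n = 3). In the interaction 7 of 10 fibroblast and 5 of 9 smooth muscle markers tested were called lower by limma. Of 14 Mφ markers 0 were called in either direction, and 1, Cd163, had an unadjusted p under 0.05 from limma in the other direction (2.39). Of 15 Mφ markers on the array, 8 were above background on no NP Mφ-depleted array, while every fibroblast marker was on some. A larger loss of those 8 Mφ markers in NP rats could thus hardly show, so these counts are not set against each other. Aif1, C1qb and Cd68, the Mφ markers above background on every array, differed between whole and Mφ-depleted cervix by 4.20, 3.77 and -0.15 in D21. In NP rats they differed by 5.04, 5.13 and 0.54. Between the Mφ-depleted groups C1qb was called higher in D21, by 1.64 (SE 0.44, adjusted p = 0.0622 from limma), where 5.44% of genes were called higher. Aif1 and Cd68 were not called there. The part of Mφ, fibroblasts and smooth muscle in the Cd302 result was not tested. Mrc2, a collagen-binding lectin receptor of mesenchymal cells from the same broad family, was the one gene of the related receptors called in the interaction, at -2.85 (SE 0.40, adjusted p = 0.00689 from limma).

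**Figure D3:**
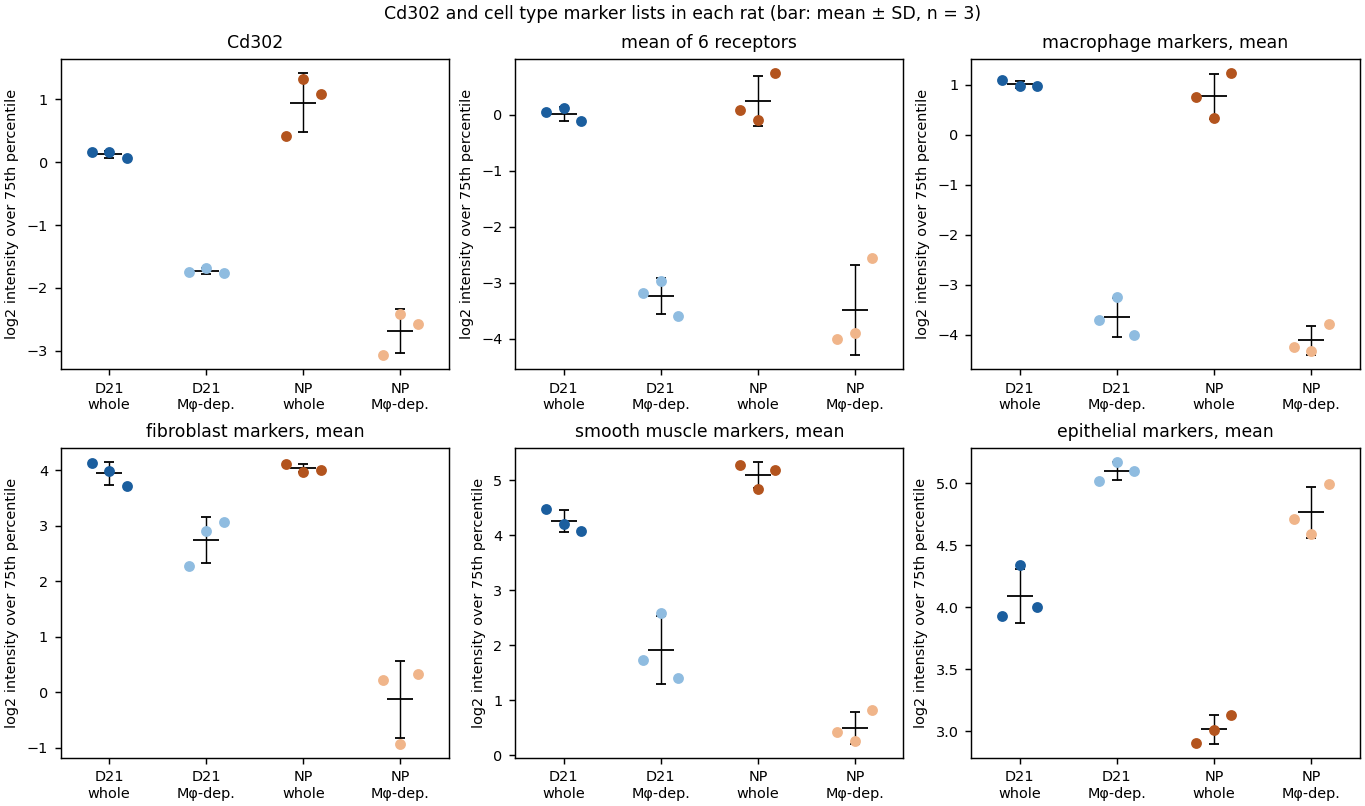
Each panel shows the log2 intensity over the 75th percentile on the vertical axis for the 4 groups, with a point for each rat and the mean ± SD of 3 rats, for Cd302, for the mean of 6 receptors and for the means of marker lists. Mφ markers lie at -3.65 in D21 and -4.12 in NP Mφ-depleted cervix. Of 15 on the array, 4 and 8 were above background on no such array, so a further drop of these could hardly show. Cd302, fibroblast and smooth muscle markers drop further in NP than in D21 Mφ-depleted cervix, and epithelial markers are higher in Mφ-depleted cervix.

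Sirpa, the receptor for the CD47 "do not eat me" mark, was read by 2 probes that disagreed. The brighter probe was at 1.70, 1.64 and 1.60 in D21 whole and at 2.08, 1.90 and 0.78 in D21 Mφ-depleted cervix. It was at 1.19, 1.08 and 1.94 in NP whole and at 1.20, 1.46 and 1.74 in NP Mφ-depleted cervix, so that all groups overlapped. Its difference was 0.06 in D21 (SE 0.35, adjusted p = 0.911 from limma), and for NP rats it was -0.06 (SE 0.35, adjusted p = 0.904 from limma). The coding probe printed above, which holds the tyrosine motif and the stop codon, gave -0.53, -0.95 and -0.55 in D21 whole and -3.39, -3.66 and -2.87 in D21 Mφ-depleted cervix. There the groups were far apart. In NP rats it gave -2.04, -1.92 and -1.21 in whole and -2.18, -2.87 and -3.04 in Mφ-depleted cervix, where rat 7 was not above background. The NP groups of this probe lay close together but did not overlap, as for 23.0% of genes tested in that direction. Put in place of the brighter probe, its difference was 2.63 in D21 (SE 0.32, adjusted p = 5.2e-04 from limma) and was called, and 0.97 in NP rats (SE 0.32, unadjusted p = 0.0114 and adjusted p = 0.0384 from limma), which missed both the p and the 2-fold limit of a call. Its interaction was 1.66 (SE 0.46, adjusted p = 0.0872 from limma). By the coding probe Sirpa was also called higher in D21 than in NP whole cervix, by 1.05 (SE 0.32, adjusted p = 0.0815 from limma), where 5.39% of genes were called higher. Which transcripts each probe binds was not tested.

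Cd200r1, Cd300e and Cd300lf were near the floor of the arrays. Cd200r1, the restraining receptor for CD200, was at -2.56, -3.50 and -2.62 in D21 whole cervix, with rats 5 and 7 above background, and at -7.35, -6.56 and -4.73 in D21 Mφ-depleted cervix, with no array above it. Against the floor it was 3.46-fold higher in D21 whole cervix, which is no lower bound, as only 2 of 3 whole arrays were measured. In NP rats whole cervix was at -4.21, -4.18 and -2.97, with rat 10 above background, and Mφ-depleted cervix at -5.60, -6.34 and -3.96. The value against the floor was 1.55-fold there, again no lower bound, with 1 of 3 whole arrays measured. Cd200r1 did not pass the filter in any comparison. Without D21 whole rat 6 it passed through whole cervix alone and was called in D21, at least 4.27-fold higher (adjusted p = 0.0233 from limma). With no filter it was called in D21 too (adjusted p = 0.0296 from limma) and not called in NP rats (adjusted p = 0.241 from limma).

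Cd300e, an activating member of the family, was above background on 2 arrays, both NP whole, with -2.63 in rat 8 and -3.25 in rat 10 beside -5.68 in rat 9. All other groups, at -4.89 to -5.44 in D21 whole, -7.05 to -5.34 in D21 Mφ-depleted and -5.92 to -4.68 in NP Mφ-depleted cervix, were below background. Against the floor NP whole cervix was 1.48-fold above NP Mφ-depleted and 1.32-fold above D21 whole cervix. These are no lower bounds, as only 2 of 3 arrays were measured. Both comparisons turned on NP rat 9. Without it Cd300e passed the filter, through the remaining NP whole arrays alone, and was called. NP whole cervix then exceeded the NP Mφ-depleted level by at least 2.78-fold (adjusted p = 0.00555 from limma) and the D21 whole level by at least 2.49-fold (adjusted p = 0.0263 from limma). A further probe, named in the files only by an accession that is also listed for the Cd300e probe, was brighter: it was at -2.19, -2.02 and -2.24 in D21 whole and at -1.22, -2.24 and -1.01 in NP whole cervix, and below background on all 6 Mφ-depleted arrays. Its level in whole cervix exceeded the Mφ-depleted one by at least 5.80-fold in D21 (adjusted p = 0.00108 from limma) and 7.60-fold in NP rats (adjusted p = 1.5e-04 from limma). A second probe of that name was not above background on any array. Whether the brighter one reads Cd300e was not tested, and it was not counted as a member.

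Cd300lf, a restraining CD300 protein, was above background on 4 arrays: D21 Mφ-depleted rat 2 (-3.79), NP whole rat 10 (-2.68) and NP Mφ-depleted rats 5 and 6 (-4.72 and -3.30). D21 whole cervix was at -4.07, -3.64 and -4.42, all below background, and the other NP whole rats were at -2.84 and -3.41. Against the floor it was 1.98-fold higher in NP than in D21 whole cervix, which is no lower bound, as only 1 of 3 NP arrays was measured. It was not called with Mφ removal at this signal: with no filter the difference was 0.77 in D21 (SE 0.50, adjusted p = 0.448 from limma) and 1.18 in NP animals (SE 0.50, unadjusted p = 0.0388 and adjusted p = 0.172 from limma). The probe listed as Pirb in RefSeq (LOC690955, chr1:63815419-63815478) belongs to a multigene family of near copies and is uncertain for that reason. It was above background in D21 whole rat 5 (-1.36) and in NP whole rats 9 and 10 (-1.44 and -0.94), while D21 whole rats 6 and 7 and NP whole rat 8 were at -6.62, -6.40 and -5.43. All 6 Mφ-depleted arrays were below background. Against the floor the NP whole group was 3.52-fold higher than the NP Mφ-depleted group, which is no lower bound, as only 2 of 3 arrays were measured.

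Comparing D21 with NP whole cervix asks how the tissue as a whole differs between late pregnancy and proestrus. All D21 whole arrays shared a slide with NP whole rat 10, while NP whole rats 8 and 9 were on another. State and slide are thus largely confounded, and the part of the slide was not tested. With the brightest probe of each gene, no receptor was called in either direction by limma or by the methods' t-test, while the coding probe of Sirpa was called higher in D21 by limma (1.05). Of 14056 genes tested, 5.39% were called higher and 3.09% lower. At an unadjusted limma p under 0.05 the brightest probes gave Cd302 alone, lower in D21. Trem2 differed by -0.27 (SE 0.60, adjusted p = 0.826 from limma), Gpr34 by 0.08 (SE 1.08, adjusted p = 0.978 from limma), Siglec1 by 0.13 (SE 0.58, adjusted p = 0.917 from limma) and the brighter Sirpa probe by 0.25 (SE 0.35, adjusted p = 0.720 from limma). These standard errors leave room for sizeable differences in either direction. Cd300a was lower in D21 by 0.73 (SE 0.48, adjusted p = 0.398 from limma, groups overlapping), and without NP whole rat 9 the difference was -1.30 and called (adjusted p = 0.0835 from limma). Cd302 differed by -0.82 (SE 0.27, adjusted p = 0.0952 from limma), with all D21 values below all NP values, a state in which 24.3% of the genes tested were. Without NP whole rat 8 it was -1.08 and called. This comparison shares its arrays with those of whole against Mφ-depleted cervix.

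When the Mφ-depleted samples of D21 and NP rats were compared, only Cd302 and Sirpa passed the filter. Neither was called by limma or by the methods' t-test, beside 5.44% of 13406 genes called higher and 2.06% lower, and at an unadjusted p under 0.05 limma gave Cd302 alone. Cd302 was higher in D21 by 0.96, a fold of 1.94 that missed the 2-fold limit (SE 0.26, adjusted p = 0.0684 from limma), and without NP rat 6 or NP rat 7 it was 1.10 or 1.01 and called. The groups did not overlap, as for 9.54% of genes in that direction. The brighter Sirpa probe differed by 0.12 (SE 0.35, adjusted p = 0.867 from limma). Without D21 rat 4, the lowest D21 value and not above background, Trem2 entered the test through D21 Mφ-depleted cervix alone, where it is high. It was then called higher in D21, at 1.56 (SE 0.31, adjusted p = 0.00883 from limma), which is a description only.

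Other receptors of these families were examined in the same way. The lists were chosen with earlier results of these data known, and the same filter on background was used. Of 11 other inhibitory and paired receptors tested in D21 rats (of 23 on the array), 10 were called higher in whole cervix, with a median difference of 3.72 beside -0.06 over all genes. In NP rats 11 of 11 were called higher, with a median of 5.32 beside -0.04. Over all genes 10.0% were called higher in D21 and 13.6% in NP rats. Of the receptors called, 9 of 10 in D21 and 10 of 11 in NP rats passed the filter through whole cervix alone. They are bright there, so these counts and medians are a description only. Pira2, an activating relative of Pirb, was at least 19.2-fold higher in D21 whole cervix (adjusted p = 0.00214 from limma) and at least 17.4-fold higher in NP whole cervix (adjusted p = 7.8e-04 from limma), with no Mφ-depleted array above background. Clec4a, a restraining lectin receptor, exceeded its Mφ-depleted level by at least 7.95-fold in D21 rats (adjusted p = 3.1e-04 from limma), and its relative Clec4a3 differed by 5.32 (SE 0.41, adjusted p = 2.2e-05 from limma). In NP rats Clec4a1 differed by 6.01 (SE 0.62, adjusted p = 3.7e-05 from limma), and Pilra, a receptor for sialylated proteins, was at least 38.8-fold higher (adjusted p = 7.2e-07 from limma). Of the CD300 and TREM relatives 2 of 7 on the array were tested, and Cd300c2, an activating member, was higher in whole cervix by at least 17.6-fold in D21 (adjusted p = 0.00153 from limma) and 48.8-fold in NP rats. Treml2 was tested and not called. Between the states, 3 of 12 inhibitory and paired receptors were called lower in D21 than in NP whole cervix and none higher, beside 3.09% and 5.39% of all genes. These were Clec12a, a restraining receptor for crystals of uric acid, at -1.75 (SE 0.45, adjusted p = 0.0456 from limma), Pilra at -1.03 (SE 0.32, adjusted p = 0.0828 from limma), and Clec4a2 at -2.43 (SE 0.77, adjusted p = 0.0881 from limma), whose groups overlapped. Probes of the Pira and Lilr genes may share signal between near copies, so Pira2 is uncertain.

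Adaptors and signalling proteins were split. Tyrobp (DAP12), through which TREM2 and the activating CD300 proteins signal, was at 3.59 ± 0.21 in D21 whole and -0.96 ± 1.30 in D21 Mφ-depleted cervix (SD, n = 3), a difference of 4.55 (SE 0.63, adjusted p = 0.00106 from limma). In NP rats it differed by 5.59 (SE 0.63, adjusted p = 6.8e-05 from limma). Fcer1g, the Fc receptor gamma chain, differed by 4.39 in D21 (SE 0.40, adjusted p = 7.7e-05 from limma), and its NP value was 5.13. In all 8 of 20 adaptors and kinases tested were called higher in D21 whole cervix and 10 of 18 in NP whole cervix, beside 10.0% and 13.6% of all genes. In each state 6 of those called passed the filter through whole cervix alone. Syk, the kinase downstream of these adaptors and also present in epithelium, was the one called the other way, at -1.16 in NP rats (SE 0.34, adjusted p = 0.0224 from limma). Between D21 and NP whole cervix Plcg2 alone was called of 20, higher in D21 by 1.76 (SE 0.36, adjusted p = 0.0202 from limma), a count near the 5.39% of all genes. Plcg2 passed the filter through D21 whole cervix alone, where it is high, so this call is a description only.

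Of 15 ligands and ligand-making enzymes tested, 4 were called higher in D21 whole cervix (median 0.30 beside -0.06 over all genes) and 5 in NP whole cervix (median 0.59 beside -0.04), beside 10.0% and 13.6% of all genes. Of these, 2 and 4 passed the filter through whole cervix alone. Cd47, the ligand of SIRPα, differed by 0.48 in D21 (SE 0.23, adjusted p = 0.146 from limma), and the NP value was 0.17 (SE 0.23, adjusted p = 0.604 from limma). Cd200, the ligand of CD200R1, was called lower in NP whole cervix, at -1.45 (SE 0.30, adjusted p = 0.0038 from limma), and differed by -0.60 in D21 rats, which was not called. A test of the difference between both states did not call it (0.85, adjusted p = 0.313 from limma). The leukocyte sialoglycoproteins Selplg and Spn were higher in D21 whole cervix by at least 12.1-fold and 3.27-fold (adjusted p = 6.2e-04 and 0.00719 from limma). Angptl2, a secreted ligand of the Pirb family, differed by 2.55 in D21 and 2.22 in NP rats. Between the states 3 of 15 were called higher in D21 than in NP whole cervix, beside 5.39% of all genes. Pla1a, the phospholipase that makes the GPR34 ligand lysophosphatidylserine, was higher by 1.95 (SE 0.46, adjusted p = 0.0339 from limma). Sftpd, a collectin that binds SIRPα, was higher by 3.43 (SE 0.86, adjusted p = 0.0403 from limma). Muc1, a sialylated mucin of epithelium, was higher by 3.24 (SE 0.90, adjusted p = 0.0596 from limma). Epithelial markers were also higher in D21 whole cervix, at 4.09 ± 0.22 beside 3.01 ± 0.12 in NP (SD, n = 3), and their part in the Sftpd and Muc1 values was not tested.

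Of the receptors related to Gpr34 and Cd302, 5 of 6 tested were called higher in whole cervix in D21 (median 3.91) and 5 of 6 in NP rats (median 4.03). Over all genes 10.0% and 13.6% were called higher, with medians of -0.06 and -0.04. The receptor counts are a description again, as 4 and 5 of those called passed the filter through whole cervix alone. Mrc1, the mannose receptor of resident Mφ, exceeded the Mφ-depleted level by at least 22.3-fold in D21 (adjusted p = 1.4e-04 from limma) and 7.19-fold in NP rats (adjusted p = 2.7e-04 from limma). P2ry14, a receptor for sugar nucleotides, did so by at least 7.77-fold and 6.57-fold, and P2ry12, a receptor for ADP, differed by 4.19 in D21 rats (SE 0.58, adjusted p = 0.0011 from limma).

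**Figure D4:**
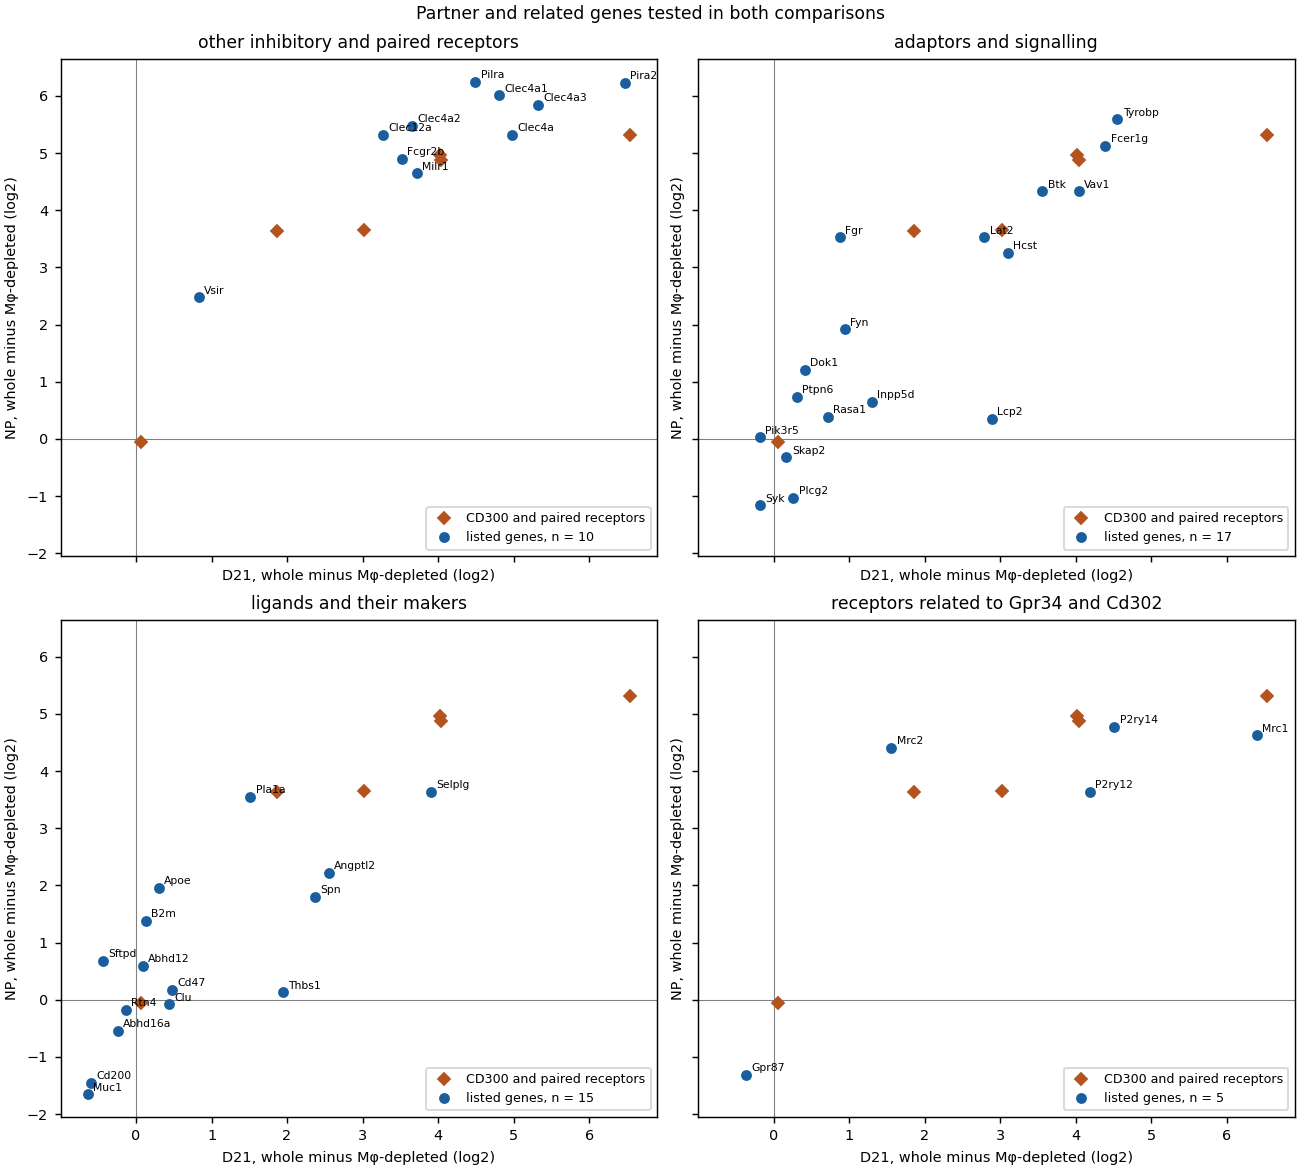
Each point is a gene tested in both comparisons, with the log2 difference of whole minus Mφ-depleted cervix in D21 rats on the horizontal axis and in NP rats on the vertical axis, and diamonds mark the CD300 and paired receptors. Fitted differences are drawn, also where the text gives a bound, and 1 adaptor or kinase is not shown. Pilra, Clec4a3 and Tyrobp lie with Trem2 and Siglec1 at the upper right, Cd47 and the brighter Sirpa probe lie near 0, and Cd200 and Syk lie below 0 in NP rats.

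The genes most like each receptor across the 12 arrays were found by Pearson correlation among 14481 genes. All 12 arrays share the split between whole and Mφ-depleted cervix, which sets most of these values, so they are given as a description. Cd300a was most like Samsn1 (r = 0.992), Trem2 most like Tnfaip8l2 (r = 0.993) and Siglec1 most like Prkcb (r = 0.982). Gpr34 was most like RGD1559588 (r = 0.979), and the mean of the receptors was most like the Toll-like receptor gene Tlr7 (r = 0.994), with Ms4a11 (r = 0.99) and the complement receptor gene C5ar1 (r = 0.987) and the probe with the Cd300e accession (r = 0.988) among the next. Cd302 was most like Slc43a1 (r = 0.99), an amino acid transporter gene. Cd300lf was most like Il2rb (r = 0.946), Cd200r1 most like Fpgt (r = 0.957) and Cd300e most like Tyw5 (r = 0.92), at signals mostly below background. The brighter Sirpa probe was most like a probe with no gene name (r = 0.873), and its correlation with Trem2 was 0.208.

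Since several receptors moved together, the bases before their transcription starts were searched for the core GAGGAA, which the myeloid factor PU.1 binds, on both strands (TTCCTC on the other). RefSeq promoters on the GRCr8 build were at hand for 5 of the 9 receptors. Of these, 3 held the core in the 250 bases before the start (Trem2, Gpr34 and Cd300lf), Cd300a and Cd300e did not, and 23.3% of all 33469 promoters did. The cores do not overlap one another. Those of Trem2 and Gpr34 are shown, as the receptors with the core that changed most, with the core in capitals.
Trem2, chr9:20151780-20152029, minus strand: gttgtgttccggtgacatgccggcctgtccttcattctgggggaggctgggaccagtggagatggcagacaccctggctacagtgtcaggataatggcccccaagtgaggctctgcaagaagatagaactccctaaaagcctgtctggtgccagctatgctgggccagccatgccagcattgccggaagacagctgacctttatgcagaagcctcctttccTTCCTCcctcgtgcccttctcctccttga
Gpr34, chrX:11785837-11786086, minus strand: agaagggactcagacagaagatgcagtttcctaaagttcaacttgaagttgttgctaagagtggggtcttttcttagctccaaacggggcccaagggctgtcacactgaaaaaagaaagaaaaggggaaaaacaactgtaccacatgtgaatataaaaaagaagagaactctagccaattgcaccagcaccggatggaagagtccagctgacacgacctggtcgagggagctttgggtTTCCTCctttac
In both the core lies on the reverse strand, and a match of these letters is not a measured binding site.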

How the data were processed

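Gene expression was measured on 1-colour Agilent rat arrays, and groups were read from the sample labels. The authors deposited spot intensities from Agilent Feature Extraction 9.5.3.1, background-subtracted and not normalized between arrays, and a table of ratio values of the same arrays, whose values match each intensity over its array's 75th percentile (the median quotient was 0.996 to 1.005).

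Control spots and outlier spots (294 to 648 an array) were left out, spots of a probe were averaged, and the array's 75th percentile was subtracted on the log2 scale. Probes were named by matching accessions to RefSeq (17320 of 30367, 57.0%), otherwise by the file's name, and the brightest probe of a gene was used. Genes rated above background in every rat of 1 or more groups compared entered a limma fit (3.58.1, R 4.3.3) over all 12 arrays, without covariates, and p-values were adjusted by Benjamini-Hochberg over all genes tested. Calls used an unadjusted p under 0.01 with at least 2-fold change, as in the study's methods, and the interaction an adjusted p under 0.05. Where no array of a group was above background, a bound is given as at least N-fold: on each such array the larger was taken of the signal of the probe itself and the faintest signal rated above background, and the group mean of these log2 values was compared with the mean of the brighter group. Where only part of the brighter group was above background, the same ratio is given as a value against the floor and is no lower bound. The fits were tested on simulated data. Alternatives were other background corrections, scalings, filters, probes, array weights, slide and scan day as blocks, the methods' t-test, the deposited ratio table and leaving out each rat.

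The members and lists were chosen with earlier results of these data known. Named genes were all members, Tyrobp, Cd47, Cd200, the genes most like the members, and of each list up to 3 genes a direction with the largest called change and no overlap of the groups, in the comparisons of whole with Mφ-depleted and of D21 with NP whole cervix. One listed gene is counted in its list but not reported here. Clec4a2, Mrc2 in the interaction and the values with a rat left out were added after seeing the data. The study's Welch test is called the methods' t-test. An exact permutation test of 3 against 3 rats cannot go below a p of 0.1. The labels name separate rats for all 12 arrays. Python 3.11.15, numpy 2.4.6, pandas 2.3.3 and matplotlib 3.10.9 made the tables and plots.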

Additional observations from a re-analysis of the deposited data

Results flagged for a closer look

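Cd302 stood out because its change with Mφ removal differed between D21 and NP rats: the difference between whole and Mφ-depleted cervix was smaller in D21 than in NP rats by 1.78 on the log2 scale, an interaction of -1.78 (SE 0.38, adjusted p = 0.0373 from limma, 3 rats a group). The D21 difference was 1.86 and the NP difference 3.64, and the groups of each state were separate. In that test 0 of 14 Mφ markers were called by limma (1 at an unadjusted p under 0.05) and 7 of 10 fibroblast markers were, and their part in the result was not tested. Since 8 of 15 Mφ markers were above background on no NP Mφ-depleted array, a larger loss of those 8 in NP rats could hardly show. The call was lost with slide as a block (adjusted p = 0.191 from limma), with scan day as a block (0.0648), with normexp (0.219), with the percentile over detected probes (0.0748), without a filter (0.15) and in 8 of the 12 fits that left out a rat, while the direction stayed. All whole arrays were scanned on the same day, and only 1 Mφ-depleted array of each state was.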

How the results depend on the processing

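No paired analysis was possible because the groups compared share no rat numbers that mark the same rat. The 5 receptors called in each comparison of whole with Mφ-depleted cervix kept their direction in all alternatives. The count in D21 was 1 by the methods' t-test after Benjamini-Hochberg adjustment, 2 with normexp, 1 with a filter on every array (which tests fewer receptors) and 1 with slide as a block, and between 5 and 6 with each rat left out. In NP rats it was 2 by that adjusted t-test and 1 with the filter on every array, and between 5 and 6 with a rat left out. For D21 against NP whole cervix the count was 1 with array weights (Cd300a, -1.10) and 0 to 2 with a rat left out, and for Mφ-depleted cervix 0 to 1. With the coding probe in place of the brighter one, Sirpa was called in addition in D21 whole against Mφ-depleted cervix (2.63) and in D21 against NP whole cervix (1.05, higher in D21). The interaction count of 1 was 0 with normexp, with the percentile over detected probes, without a filter, and with slide or scan day as a block, and 0 to 2 with a rat left out, Trem2 being the other (-1.83, adjusted p = 0.0204 from limma, without D21 Mφ-depleted rat 4). The cause was not tested.

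The uncalled small differences changed sign. For the brighter Sirpa probe, whole against Mφ-depleted cervix of D21 rats was -0.17 with array weights, -0.37 with slide as a block and -0.34 to 0.31 with a rat left out, and that of NP rats 0.45 with the mean of both probes, 0.97 with the coding probe, 0.17 with array weights, 0.10 with scan day as a block and -0.33 to 0.10 with a rat left out. D21 against NP Mφ-depleted cervix was -0.08 with normexp, -0.03 with quantile normalization, -0.04 with the percentile over detected probes, -0.25 with the mean of both probes, -0.09 with slide or scan day as a block, -0.61 with the coding probe and -0.13 to 0.52 with a rat left out. Its D21 against NP whole value was -0.29 with slide as a block, and its interaction -0.45 with array weights, -0.21 with slide as a block and -0.28 to 0.40 with a rat left out. For Gpr34, D21 against NP whole cervix was -0.29 with slide as a block and -0.10 to 0.26 with a rat left out, and the interaction -0.91 with normexp and -0.48 to 2.17 with a rat left out. For Siglec1, D21 against NP whole cervix was -0.26 with array weights, -0.92 with slide as a block and -0.30 to 0.66 with a rat left out. Scaling moved the median of all genes by up to 0.61 (normexp, D21 against NP Mφ-depleted cervix), by -0.177 to 0.175 with quantile normalization and by -0.162 to 0.188 with the percentile over detected probes. Signal near background limits Cd300e, Cd300lf and Cd200r1.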
